A study of Mus musculus with 16 samples.

Results

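The 9 genes described here carry retinoic acid through its production, transport, action and removal, and were measured in mouse embryonic stem cells (mESCs) and in endoderm and mesoderm cells derived from them. They are Stra6, Aldh1a2, Dhrs3, Crabp1, Crabp2, Cyp26a1, Rara, Rarb and Rarg. A probe set is the group of probes of an array that is read as 1 value. Each gene was taken from the probe set annotated to its symbol alone, the one of highest mean over the 16 arrays where there are several, and each of the 9 had exactly 1. They are 9 of 19938 genes that could be read in this way from the 35556 probe sets of the array.

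Vitamin A (retinol) is taken up by cells through the membrane receptor Stra6 and is oxidized first to retinal and then to retinoic acid, which binds nuclear receptors of the Rar family. These receptors sit on DNA as partners of Rxr proteins, at paired hexamer motifs called retinoic acid response elements, and switch from repression to activation once the ligand is bound. In the mouse embryo, retinoic acid made in the mesoderm patterns the hindbrain, the somites and the gut tube, and Cyp26 enzymes clear it from regions that must stay free of it.

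All cells were mESCs of the genotype TGFP/+ and Foxa2tagRFP/+, or derived from them. In these cells 1 allele of T is disrupted by an inserted GFP gene, which reports mesoderm fate. In 1 allele of Foxa2 the reading frame is fused to tagRFP, which reports endoderm fate. For endoderm, they were grown for 2 or 4 days on feeders that express Wnt3a, with activin A at 12 ng/ml. They were sorted as Foxa2+ T- cells with high CD24, a surface glycoprotein (DE), or low CD24 (DEP, endoderm progenitors). For mesoderm, activin A at 3 ng/ml and Bmp4 at 7.5 ng/ml went into the medium on the same feeders, and whether this amount of activin A replaced the 12 ng/ml or came on top of it is not stated. These cells were sorted as Foxa2- T+ cells, negative for CD24 at day 4 (MES) or with low CD24 at day 2 or 4 (MP, mesoderm progenitors). The reference was undifferentiated, unsorted mESCs kept on fibroblast feeders in serum with LIF. The 8 groups are called DE D4, DE D2, DEP D4, DEP D2, MES D4, MP D4, MP D2 and mESC, where D is the day, and each had 2 biological replicates from the same reporter line.

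The values are log2 intensities after robust multichip average (RMA) normalization of all arrays together, so a difference of 1 is a factor of 2 in intensity. Medians of the arrays lay between 7.42 and 7.49, and replicate arrays correlated at 0.989 to 0.995 over the probe sets. The 8 endoderm markers averaged 11.06 to 11.12 on the DE D4 arrays and 7.09 to 7.18 on the mESC arrays. The 8 mesoderm markers averaged 10.89 to 10.91 on the MES D4 arrays and 7.39 to 7.54 on the mESC arrays. The 22 measured fibroblast genes averaged 7.07 to 7.52 on the arrays of sorted cells and 10.10 and 9.63 on the mESC arrays. By the rule used below, 15 to 20 of them were lower in a sorted group than in mESCs. Every difference from mESCs given here is thus one between sorted cells and an unsorted culture that includes feeders. The medium differed too, with serum and LIF for mESCs and no serum listed for the differentiation medium. The parts of sorting, feeders, medium and differentiation in these differences cannot be told apart. Replicate 2 of DE D2 stood apart from replicate 1, with a fibroblast mean of 7.52 against 7.11 in replicate 1. The mean of 9 visceral and primitive endoderm genes was 7.73 in replicate 2 and 6.93 in replicate 1. Over the groups this mean was highest in DE D4 (8.21 to 8.23), where 3 of the 9 genes were called higher than in mESCs and 1 lower. It was 7.27 to 7.45 in DEP D4, 7.71 to 7.82 in DEP D2, 6.75 to 7.16 in the mesoderm gates and 7.21 to 7.28 in mESCs. The part of these differences in the results was not tested, and values without single arrays are given where they change a call of the 9 genes. In sorted bulk RNA, fewer cells that express a gene cannot be told apart from less RNA of it per cell.

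A gene was called different where the log2 fold change was above 1 in size and the limma p-value, adjusted by the Benjamini-Hochberg method over 32000 probe sets, was below 0.05. Against mESCs the 9 genes gave 25 calls in 63 tests over the 7 sorted groups, where 5.54% of all tests were called. Of these 11 were higher (2.11% of all tests) and 14 lower (3.43%). By group, 6 of 9 were called in DE D4 (8.76% of all probe sets), 4 in DE D2 (6.65%), 3 in DEP D4 (4.51%) and 4 in DEP D2 (3.64%). There were 2 in MES D4 (5.67%), 3 in MP D4 (5.46%) and 3 in MP D2 (4.10%). Between endoderm and mesoderm gates there were 9 calls in 27 tests (3.29% of all tests). They were 4 of 9 genes for DE D4 against MES D4 (5.88%), 3 for DEP D4 against MP D4 (3.08%) and 2 for DEP D2 against MP D2 (0.903%). Between CD24 gates there were 8 calls in 27 tests (2.90%). They were 3 of 9 genes for DE D4 against DEP D4 (4.80%), 4 for DE D2 against DEP D2 (2.80%) and 1 for MES D4 against MP D4 (1.10%). Between day 4 and day 2 there were 3 calls in 27 tests (1.16%), 1 of 9 genes in DE (1.38%), 2 in MP (1.79%) and 0 in DEP (0.294%). In DEP limma gave 4 of the 9 an unadjusted p below 0.05. The test against a fold threshold (treat) is stricter than the rule, so its 0 calls there add nothing. All differences from mESCs rest on the same 2 mESC arrays, and the p-values measure the spread between 2 replicates, pooled over the 8 groups. For the 2 changes of a difference between days, there were 2 calls in 18 tests (1.06%). In the plot of each gene by array, the 9 genes follow different orders of the groups.

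**Figure D1:**
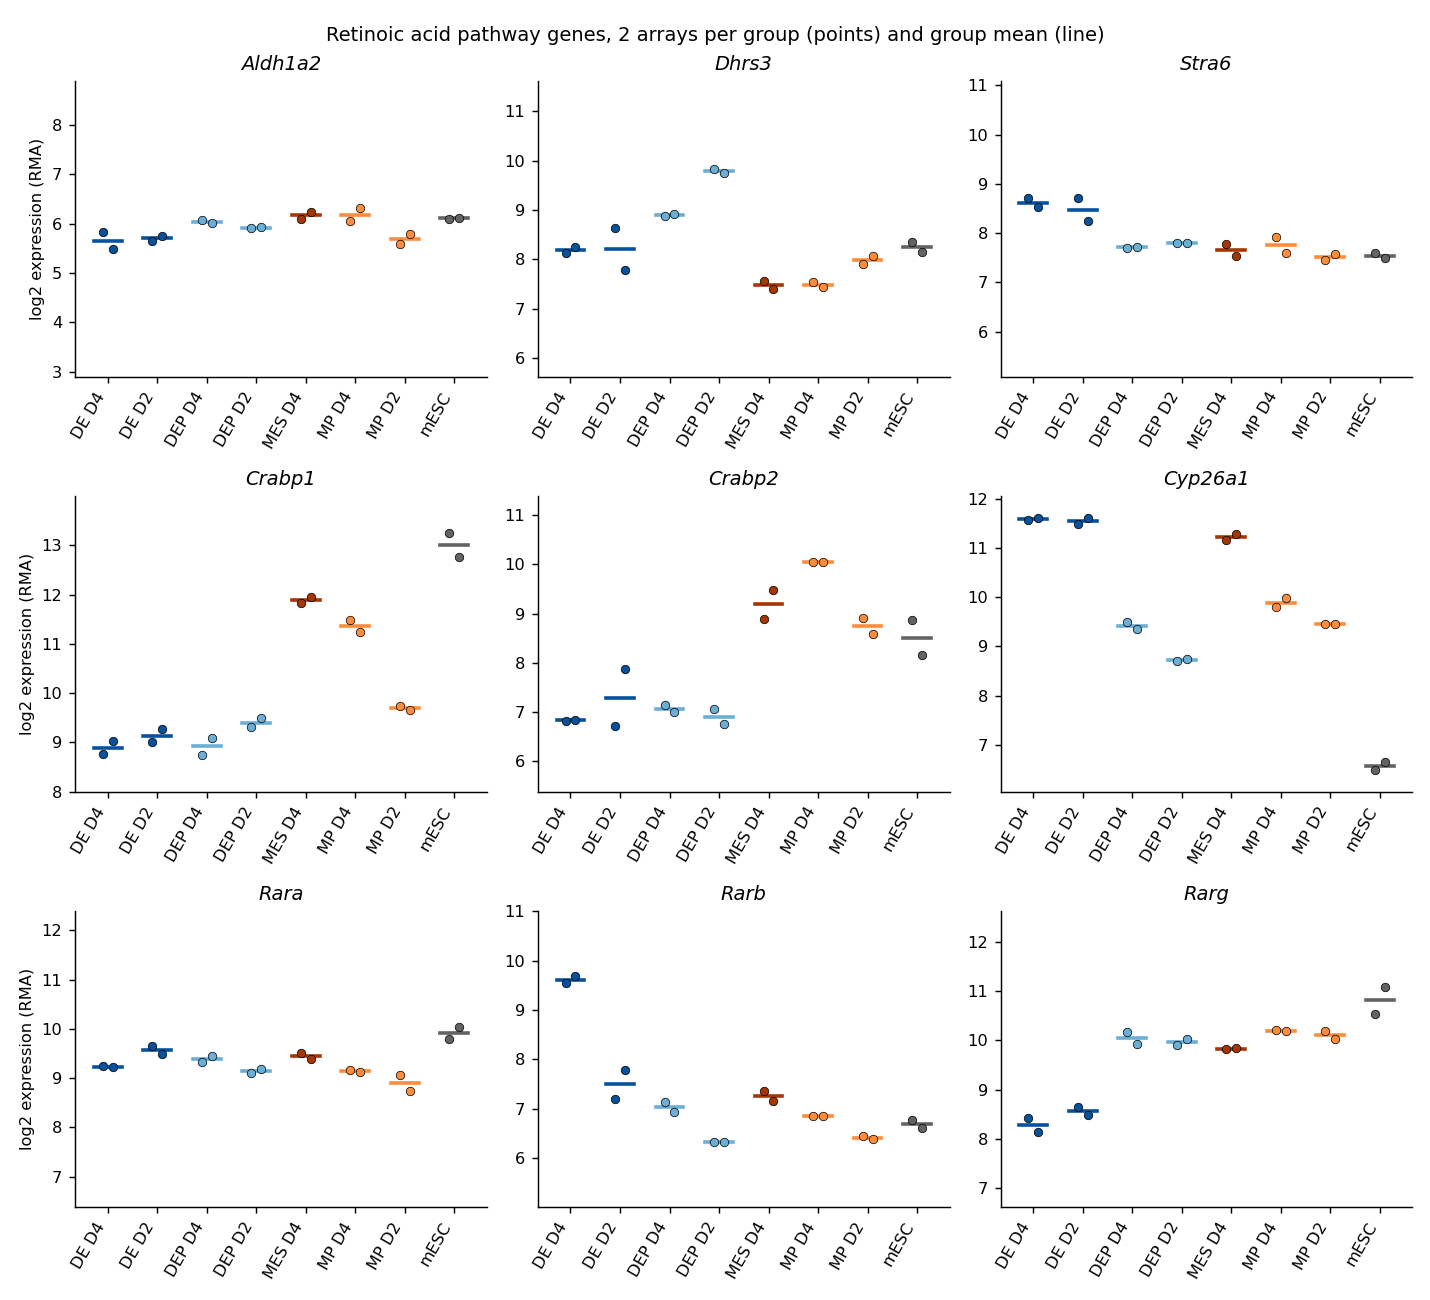
Log2 intensity (RMA, y axis) of the 9 genes on each of the 16 arrays, by group (x axis), with points for the 2 arrays of a group and a line for their mean; every panel spans the same range of log2 units. Cyp26a1 lies at 6.50 to 6.65 in mESCs and at 8.70 or above in every sorted group, Rarb stands apart in DE D4, and Rarg is lowest in the DE groups.

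Uptake and synthesis were measured by Stra6, Aldh1a2 and Dhrs3. Stra6, the receptor that brings retinol from its carrier in the blood into the cell, read 8.71 and 8.53 in DE D4, 8.72 and 8.24 in DE D2, 7.70 and 7.72 in DEP D4, 7.79 and 7.79 in DEP D2. In mesoderm gates it read 7.78 and 7.53 in MES D4, 7.92 and 7.60 in MP D4, 7.45 and 7.58 in MP D2, against 7.60 and 7.49 in mESCs. The 4 DE arrays, at 8.24 to 8.72, all lay above the other 12 arrays, at 7.45 to 7.92, where each group overlapped its neighbour in the order. Stra6 was called higher in DE D4 than in mESCs, by 1.08 ± 0.16 (fitted standard error, as for every ± below; adjusted p = 2.72e-04), which fell to 0.99 without replicate 1 of DE D4. Its other differences between DE and another gate passed the adjusted p but stayed under the fold threshold. They were 0.97 ± 0.16 over MES D4 (adjusted p = 8.91e-04), 0.91 ± 0.16 over DEP D4 (adjusted p = 0.00164) and 0.68 ± 0.16 for DE D2 over DEP D2 (adjusted p = 0.0172). The difference from MES D4 was called without replicate 2 of DE D4 (1.05), without replicate 1 of MES D4 (1.09) and with each array's median subtracted (1.00). The difference of DE D2 from mESCs, at 0.93 ± 0.16, was called without replicate 2 of DE D2 (1.18, adjusted p = 3.35e-04). The visceral and primitive endoderm mean was also highest in DE D4, at 8.21 to 8.23, and its part in the Stra6 call was not tested.

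Aldh1a2 encodes the retinal dehydrogenase that makes most of the retinoic acid of the early embryo, chiefly in trunk mesoderm. Its values spanned 5.48 to 6.31 over all 16 arrays, with 5.82 and 5.48 in DE D4, 6.10 and 6.24 in MES D4, 6.05 and 6.31 in MP D4, 5.60 and 5.78 in MP D2, against 6.09 and 6.12 in mESCs. The group means differed by 0.53 at most. Limma called it in 0 of the 16 pairwise contrasts, where 1.16% to 5.54% of all tests were called by kind of comparison. Of these contrasts 6 had an unadjusted p below 0.05. The largest of these was DE D4 minus MES D4, at -0.52 ± 0.13 (adjusted p = 0.0117), followed by MP D4 minus MP D2, at 0.49 ± 0.13 (adjusted p = 0.0412). Its probe set was not among the 16000 of highest mean, and RMA compresses differences at such low intensities.

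Dhrs3 encodes a reductase that turns retinal back into retinol and so lowers the supply for retinoic acid synthesis. It read 8.14 and 8.24 in DE D4, 8.64 and 7.79 in DE D2, 8.88 and 8.91 in DEP D4, 9.83 and 9.75 in DEP D2. In mesoderm cells it read 7.57 and 7.40 in MES D4, 7.54 and 7.44 in MP D4, 7.91 and 8.07 in MP D2, against 8.35 and 8.15 in mESCs. The order ran from DEP D2 through DEP D4 down to MP D4 and MES D4, which differed by 0.0043. In DEP D2 it was called higher than in mESCs, by 1.54 ± 0.21 (adjusted p = 3.53e-04), and higher than in MP D2, by 1.80 ± 0.21 (adjusted p = 6.94e-04). At day 4 the difference of DEP from MP was 1.41 ± 0.21 (adjusted p = 8.22e-04). Within the endoderm gates it was lower in DE D2 than in DEP D2, by 2.98-fold (log2 -1.57 ± 0.21, adjusted p = 4.47e-04). This call was lost in a fit of those groups alone (adjusted p = 0.0691). At day 4 the same difference was -0.71 ± 0.21 (adjusted p = 0.0347) and was not called. The change of this difference with the day was not called (0.87 ± 0.29, adjusted p = 0.253), though it reached 1.29 with an adjusted p of 0.00666 without replicate 1 of DE D2.

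Binding in the cytoplasm was measured by Crabp1 and Crabp2. Crabp1 binds retinoic acid in the cytoplasm and is tied to its breakdown. It read 8.77 and 9.02 in DE D4, 9.01 and 9.26 in DE D2, 8.74 and 9.10 in DEP D4, 9.30 and 9.50 in DEP D2. The mesoderm gates had 11.83 and 11.94 in MES D4, 11.49 and 11.24 in MP D4, 9.75 and 9.66 in MP D2, against 13.25 and 12.76 in mESCs. The 8 arrays of the endoderm gates, at 8.74 to 9.50, lay below the 6 arrays of the mesoderm gates, at 9.66 to 11.94, and both lay below the mESC arrays. It was called lower than in mESCs in 7 of 7 sorted groups, by 17.2-fold in DE D4 (log2 -4.11 ± 0.18, adjusted p = 2.20e-08) and by 2.17-fold in MES D4 (log2 -1.12 ± 0.18, adjusted p = 8.35e-04). The difference in MES D4 fell to -0.87 without replicate 1 of mESC, the array with the higher fibroblast mean. Crabp1 and the fibroblast genes were both highest on the 2 mESC arrays, and the part of the feeders in these differences was not tested. Among sorted cells, the fibroblast mean was 7.34 to 7.43 in MES D4 and 7.34 to 7.41 in MP D4, where Crabp1 was highest. It was 7.11 to 7.13 in DE D4, 7.07 to 7.11 in DEP D4 and 7.08 to 7.16 in MP D2, and 7.11 and 7.52 in DE D2.

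**Figure D2:**
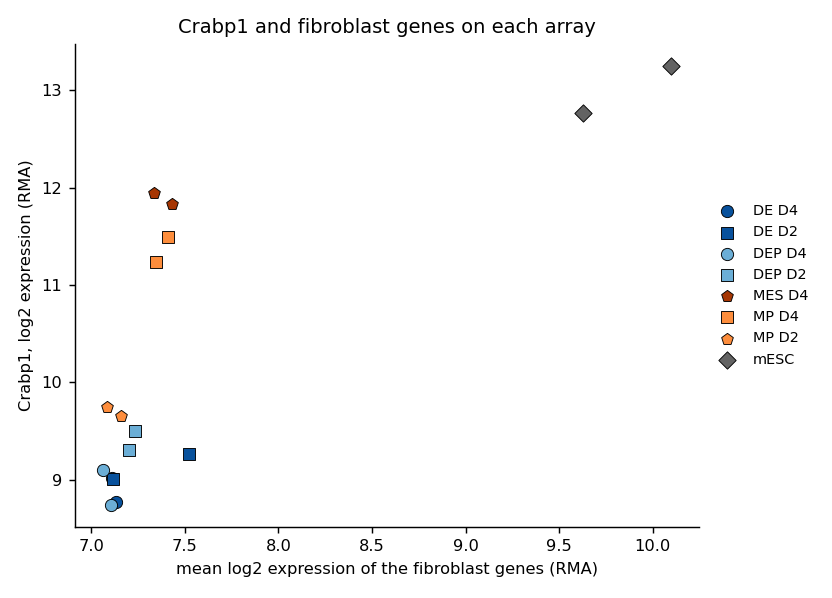
Crabp1 (log2 intensity, y axis) against the mean log2 intensity of 22 fibroblast genes (x axis) on each of the 16 arrays; the colour and shape give the group. The mESC arrays lie apart at fibroblast means of 10.10 and 9.63, while the MES D4 and MP D4 arrays have Crabp1 at 11.24 to 11.94 with fibroblast means below 7.52.

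The lineages parted in Crabp1 between day 2 and day 4. At day 2 it read 9.30 and 9.50 in DEP and 9.75 and 9.66 in MP, a difference of -0.30 ± 0.18 (95% interval -0.69 to 0.09, adjusted p = 0.632). At day 4 it was 5.43-fold lower in DEP than in MP (log2 -2.44 ± 0.18, adjusted p = 3.97e-06) and 7.94-fold lower in DE than in MES (log2 -2.99 ± 0.18, adjusted p = 3.05e-07). In MP it was called higher at day 4 than at day 2, by 1.66 ± 0.18 (adjusted p = 1.88e-04), and in DEP the same difference was -0.48 ± 0.18 (adjusted p = 0.474). The change of the DEP to MP difference between the days was itself called, at -2.14 ± 0.25 (adjusted p = 9.92e-04), in a contrast where 1.38% of all probe sets were called and where 1 of the 9 genes was. Crabp1 did not pass the rule between CD24 gates, with -0.02 ± 0.18 for DE D4 minus DEP D4 (95% interval -0.41 to 0.37) and 0.52 ± 0.18 for MES D4 minus MP D4 (95% interval 0.13 to 0.92, adjusted p = 0.171).

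Crabp2 carries retinoic acid into the nucleus and hands it to the Rar proteins. It read 6.82 and 6.84 in DE D4, 6.72 and 7.87 in DE D2, 7.14 and 7.00 in DEP D4, 7.06 and 6.76 in DEP D2. Among mesoderm gates it read 8.89 and 9.48 in MES D4, 10.04 and 10.04 in MP D4, 8.91 and 8.59 in MP D2, against 8.87 and 8.16 in mESCs. Every endoderm array, up to 7.87, lay below every mesoderm array, from 8.59, and the 4 endoderm groups overlapped one another except DE D4 and DEP D4, which differed by 0.24. Crabp2 was called lower in the endoderm gate in 3 of 3 comparisons with a mesoderm gate. The fold was 5.11 for DE D4 against MES D4 (log2 -2.35 ± 0.33, adjusted p = 3.01e-04), 7.82 for DEP D4 against MP D4 (log2 -2.97 ± 0.33, adjusted p = 1.07e-04) and 3.59 for DEP D2 against MP D2 (log2 -1.84 ± 0.33, adjusted p = 0.0122). The call at day 2 was lost without any 1 of its 4 arrays, with adjusted p up to 0.110. The change of the DEP to MP difference with the day was -1.12 ± 0.47 and was not called (adjusted p = 0.372), though it was in a fit of those groups alone (adjusted p = 0.0392).

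Against mESCs, Crabp2 was lower in the 4 endoderm groups, with -1.68 ± 0.33 in DE D4 (adjusted p = 0.00226) and -1.22 to -1.60 in the others, and higher in MP D4, by 1.53 ± 0.33 (adjusted p = 0.00646). Without replicate 1 of mESC the difference of DE D2 was -0.87 (adjusted p = 0.132), and it and those of DEP D4 (adjusted p = 0.0809) and DEP D2 (adjusted p = 0.0567) were not called. Without replicate 2 of mESC that of MP D4 was not called (adjusted p = 0.0641). The difference of DE D2 was -0.65 without its own replicate 1, and those of DEP D4 (adjusted p = 0.0661) and DEP D2 (adjusted p = 0.0552) were not called without their own replicate 2. Between days, Crabp2 was called higher in MP D4 than in MP D2, by 1.29 ± 0.33 (adjusted p = 0.0409), and this call was lost without any 1 array of MP D4, MP D2, DE D4, DEP D4 or DEP D2, with adjusted p up to 0.226. It had the largest fitted error of the 9 genes.

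Breakdown was measured by Cyp26a1, the cytochrome P450 that hydroxylates retinoic acid and is itself a classic target of it. It read 11.56 and 11.60 in DE D4, 11.48 and 11.60 in DE D2, 9.49 and 9.35 in DEP D4, 8.70 and 8.74 in DEP D2. The mesoderm arrays read 11.16 and 11.29 in MES D4, 9.80 and 9.98 in MP D4, 9.45 and 9.46 in MP D2, against 6.50 and 6.65 in mESCs. All 14 arrays of sorted cells, at 8.70 to 11.60, lay above both mESC arrays. It was called higher than in mESCs in 7 of 7 groups. The folds ran from 4.43-fold in DEP D2 (log2 2.15 ± 0.098, adjusted p = 8.59e-08) to 32.2-fold in DE D4 (log2 5.01 ± 0.098, adjusted p = 2.94e-10), with 25.1-fold in MES D4 (log2 4.65 ± 0.098, adjusted p = 3.40e-10). The fibroblast mean was lower in the sorted groups than in mESCs, and the part of the feeders in these Cyp26a1 differences was not tested.

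Cyp26a1 separated the CD24 gates in both lineages. It was higher in the gate with more CD24 in the endoderm and in the gate with less CD24 in the mesoderm. It was 4.49-fold higher in DE D4 than in DEP D4 (log2 2.17 ± 0.098, adjusted p = 1.37e-07) and 7.06-fold higher in DE D2 than in DEP D2 (log2 2.82 ± 0.098, adjusted p = 4.73e-08). In the mesoderm it was 2.52-fold higher in MES D4 than in MP D4 (log2 1.33 ± 0.098, adjusted p = 2.71e-05), the 1 call among the 9 genes in that comparison. The arrays of the gates did not overlap in any of these comparisons. Between lineages no difference in Cyp26a1 was called, with 0.36 ± 0.098 for DE D4 minus MES D4 (adjusted p = 0.0219). The others were -0.47 ± 0.098 for DEP D4 minus MP D4 (adjusted p = 0.00929) and -0.73 ± 0.098 for DEP D2 minus MP D2 (adjusted p = 0.00203). In DE the days differed by 0.04 (95% interval -0.17 to 0.26), and in DEP it was 0.70 ± 0.098 higher at day 4 than at day 2 (adjusted p = 0.00793), which was under the fold threshold.

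The receptors were Rara, Rarb and Rarg, ligand-activated transcription factors that share a DNA-binding domain and differ in where they are expressed. Rara, the most widely expressed of them in the embryo, ranged from 8.74 to 9.65 on the sorted arrays and read 9.80 and 10.03 in mESCs. The mESC arrays lay above all others, and 7 of 7 differences from mESCs were below 0, between -0.35 and -1.01. The call rule was met in MP D2, at -1.01 ± 0.12 (adjusted p = 1.58e-04), a value that became -0.84 without replicate 2 of MP D2 and -0.90 without replicate 2 of mESC. This was its 1 call in the 16 pairwise contrasts, of which 10 had an unadjusted p below 0.05. By kind of comparison, 1.16% to 5.54% of all tests were called.

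Rarb, the receptor whose gene is itself induced by retinoic acid, read 9.54 and 9.69 in DE D4, 7.20 and 7.79 in DE D2, 7.13 and 6.94 in DEP D4, 6.31 and 6.32 in DEP D2. Mesoderm gates had 7.35 and 7.16 in MES D4, 6.86 and 6.86 in MP D4, 6.44 and 6.38 in MP D2, against 6.77 and 6.60 in mESCs. The 2 DE D4 arrays were above the other 14, which reached 7.79. It was 7.63-fold higher in DE D4 than in mESCs (log2 2.93 ± 0.16, adjusted p = 1.26e-07) and 5.13-fold higher than in MES D4 (log2 2.36 ± 0.16, adjusted p = 8.98e-07). It was 5.99-fold higher than in DEP D4 (log2 2.58 ± 0.16, adjusted p = 8.11e-07) and 4.36-fold higher than in DE D2 (log2 2.12 ± 0.16, adjusted p = 3.36e-05). In a fit of the DE arrays of both days alone, the difference between the days had an adjusted p of 0.0544. The gates already differed at day 2, by 1.17 ± 0.16 for DE D2 minus DEP D2 (adjusted p = 6.27e-04). This difference was 0.88 without replicate 2 of DE D2 and had an adjusted p of 0.0662 in a fit of those groups alone. Rarb was the 1 gene of the 9 called in the change of the DE to DEP difference between the days, at 1.41 ± 0.23 (adjusted p = 0.0132, with 0.731% of all probe sets called). This call was lost without replicate 2 of DE D4, replicate 2 of DEP D4 or either array of DEP D2, with adjusted p up to 0.0704. In the other sorted groups its differences from mESCs lay between -0.37 and 0.81 and were not called. That of DE D2 (0.81) was called without replicate 1 of DE D2 (1.10, adjusted p = 1.79e-04). The visceral and primitive endoderm mean was, like Rarb, highest in DE D4, at 8.21 to 8.23 against 7.27 to 7.45 in DEP D4, and its part was not tested.

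Cyp26a1 and Rarb, the pair of genes called higher in DE than in DEP on both days, are shown with the 250 bases before their RefSeq start (build GRCm38.p6), since both hold the direct repeat that Rar and Rxr proteins are known to bind. For Cyp26a1 the stretch is chr19:37697558-37697807 on the plus strand, for Rarb chr14:16575477-16575726 on the minus strand, both written 5′ to 3′ along the gene. Capitals mark the match to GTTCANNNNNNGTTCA, searched on both strands, which in Cyp26a1 lies on the opposite strand.
Cyp26a1: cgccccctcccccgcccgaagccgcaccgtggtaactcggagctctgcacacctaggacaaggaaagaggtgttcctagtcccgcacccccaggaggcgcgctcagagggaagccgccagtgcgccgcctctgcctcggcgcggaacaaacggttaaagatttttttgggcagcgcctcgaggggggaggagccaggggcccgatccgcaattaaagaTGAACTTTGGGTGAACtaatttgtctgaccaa
Rarb: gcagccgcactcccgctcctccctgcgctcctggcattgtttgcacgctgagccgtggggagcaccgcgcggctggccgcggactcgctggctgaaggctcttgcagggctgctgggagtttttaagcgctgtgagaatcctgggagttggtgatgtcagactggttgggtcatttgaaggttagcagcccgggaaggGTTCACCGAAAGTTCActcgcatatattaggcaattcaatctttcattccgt

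The match lay 32 to 17 bases before the start of Cyp26a1 and 52 to 37 bases before that of Rarb. Read on the strand of the motif, the 16 bases are GTTCACCCAAAGTTCA in Cyp26a1 and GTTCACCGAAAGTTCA in Rarb, which differ by C8G (the base in Cyp26a1, its position from the 5′ end, the base in Rarb). Of 32851 promoter windows of 300 bases in the table, 25 (0.0761%) held this motif, in 24 of 27025 genes. The motif was chosen after the windows of the 9 genes had been read, so its share describes these windows and is no test. With either half-site as GTTCA or GGTCA, 81 windows (0.247%) matched. With a spacer of 2 bases in place of 5 (GTTCANNNGTTCA and the same exchanges) 131 windows (0.399%) matched, and no further member was among them. Windows were found for 8 of the 9 genes. Of the other genes with the motif, 7 were measured. Limma called 0 of them in DE D4 against DEP D4 (4.80% of all probe sets) or DE D2 against DEP D2 (2.80%). In these comparisons 5 of the 14 tests had an unadjusted p below 0.05. Limma called 1 in DE D4 against mESCs (8.76%), Blvrb (1.02 ± 0.17, adjusted p = 5.99e-04), which was chosen after its values were seen.

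Rarg, the receptor of the tail bud, skeletal precursors and skin, read 8.43 and 8.15 in DE D4, 8.65 and 8.49 in DE D2, 10.18 and 9.93 in DEP D4, 9.90 and 10.03 in DEP D2. In the T+ gates it read 9.82 and 9.84 in MES D4, 10.20 and 10.19 in MP D4, 10.20 and 10.02 in MP D2, against 10.53 and 11.09 in mESCs. The 4 DE arrays, at 8.15 to 8.65, lay below the other 12, at 9.82 to 11.09. Rarg was 5.74-fold lower in DE D4 than in mESCs (log2 -2.52 ± 0.17, adjusted p = 4.79e-07) and 4.71-fold lower in DE D2 (log2 -2.24 ± 0.17, adjusted p = 2.07e-06). It was 3.39-fold lower in DE D4 than in DEP D4 (log2 -1.76 ± 0.17, adjusted p = 1.83e-05) and 2.62-fold lower in DE D2 than in DEP D2 (log2 -1.39 ± 0.17, adjusted p = 2.29e-04). It was 2.91-fold lower in DE D4 than in MES D4 (log2 -1.54 ± 0.17, adjusted p = 3.71e-05). The differences of DEP and of the mesoderm groups from mESCs were -0.61 to -0.98. Without replicate 1 of mESC, 3 of these 5 were called, in DEP D4 (-1.04), DEP D2 (-1.12) and MES D4 (-1.26). DE D4 and DE D2 differed by -0.29 ± 0.17 (95% interval -0.65 to 0.08).

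Between the CD24 gates of the endoderm, Rarb was thus called higher and Rarg lower in DE on both days, while Rara differed by -0.15 at day 4 and by 0.43 at day 2 and was not called. Over the 16 arrays Rarb and Rarg had a Pearson correlation of -0.80, Stra6 and Rarg of -0.90, Cyp26a1 and Rarg of -0.81 and Crabp1 and Crabp2 of 0.72. These arrays are pairs from 8 groups, so the correlations describe the group means.

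**Figure D3:**
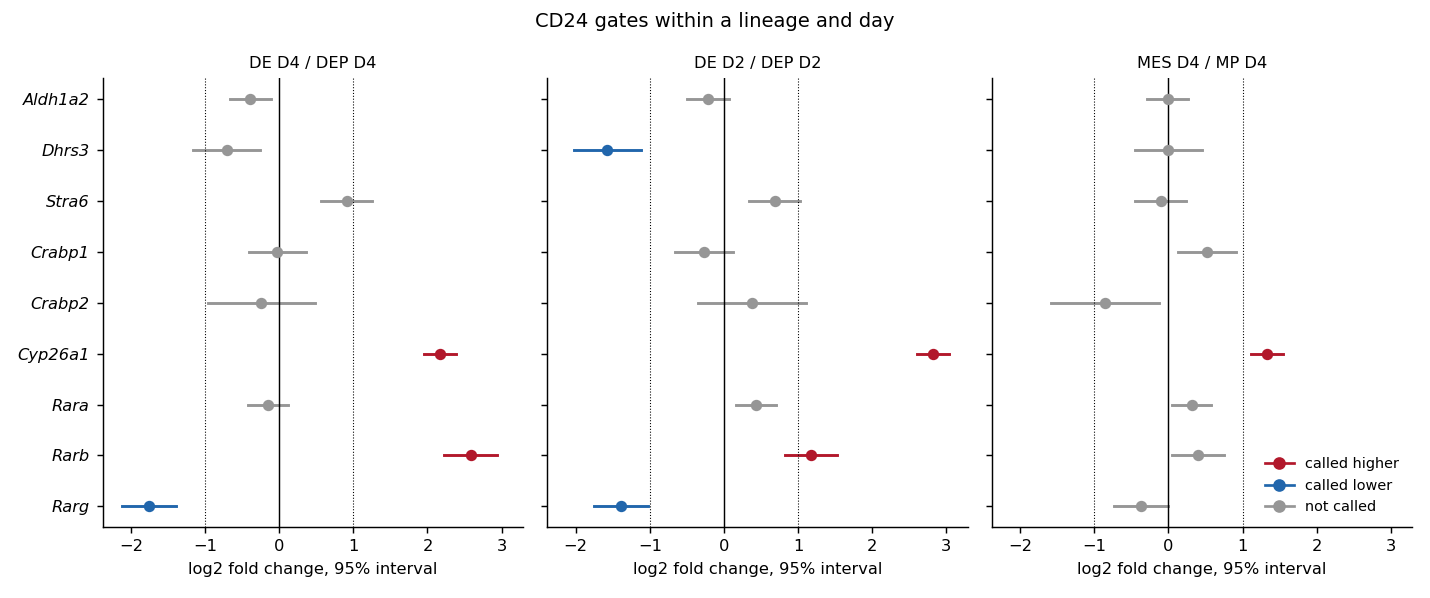
Log2 fold change (points) with its 95% interval (bars) for the 9 genes between CD24 gates, in 3 panels from left to right for DE D4 over DEP D4, DE D2 over DEP D2 and MES D4 over MP D4; dotted lines mark the fold threshold of 1. Cyp26a1 is called higher in all 3 panels, Rarb higher and Rarg lower in both endoderm panels, and Dhrs3 lower in the day 2 endoderm panel. The group named before "over" has more CD24 in the endoderm panels and less CD24 in the mesoderm panel.

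**Figure D4:**
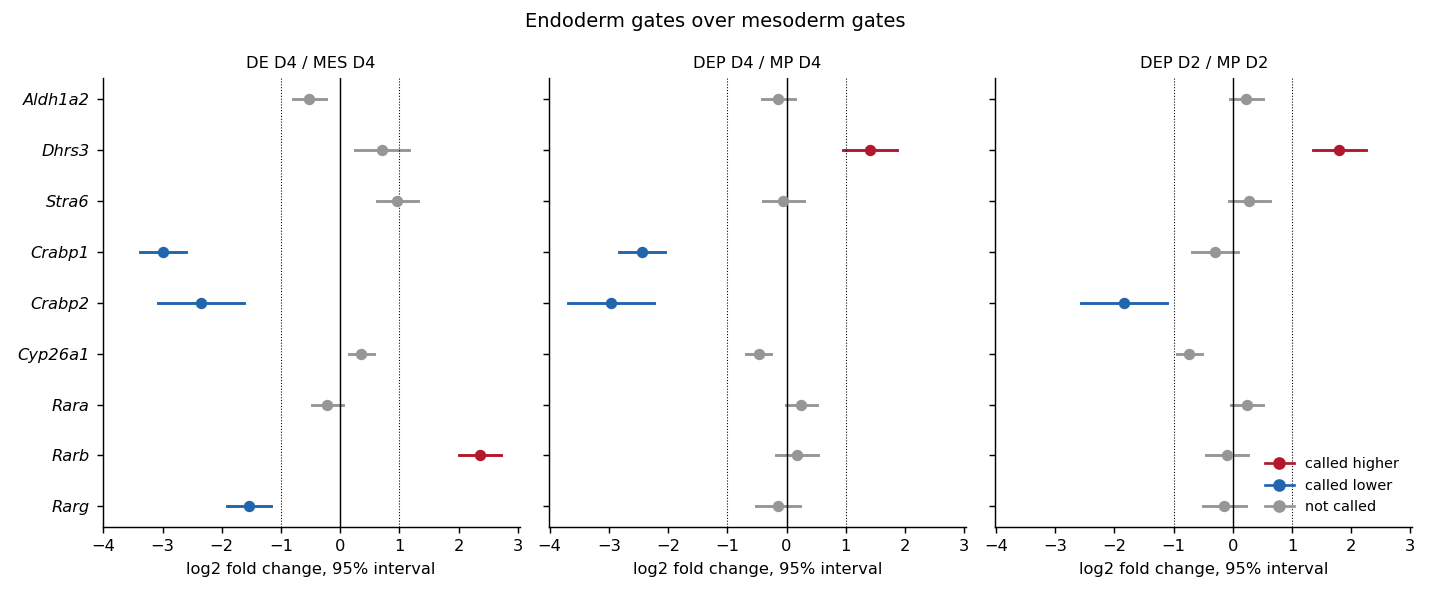
Log2 fold change (points) with its 95% interval (bars) for the 9 genes between endoderm and mesoderm gates, for DE D4 over MES D4, DEP D4 over MP D4 and DEP D2 over MP D2; dotted lines mark the fold threshold of 1. Crabp2 is called lower in all 3 panels, Crabp1 in both day 4 panels, and Dhrs3 is called higher in both progenitor panels.

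Other genes of retinoid metabolism and signalling were counted from a list of 43, of which 40 were measured. Against mESCs they gave 12 calls higher (2.11% of all tests) and 15 lower (3.43%) in 280 tests. Between lineages there were 3 and 3 in 120, where 3.29% of all tests were called in either direction. Between CD24 gates there were 2 and 3 in 120 (2.90%), and between days 1 and 2 in 120 (1.16%). The median of the list in DE D4 minus mESC was 0.15, where the median of all probe sets was 0.07. Rbp4, the retinol carrier that Stra6 binds, was higher in DE D4 than in mESCs, by 2.84 ± 0.13 (adjusted p = 2.50e-08), and than in MES D4, by 2.35 ± 0.13 (adjusted p = 1.27e-07). It was also higher than in DEP D4, by 2.14 ± 0.13 (adjusted p = 6.24e-07), and than in DE D2, by 1.86 ± 0.13 (adjusted p = 1.51e-05). The visceral and primitive endoderm mean was highest in the same group, as given above, and its part in the values of Rbp4, and of Rarres1 below, was not tested. Rxra, a partner of the Rar proteins, was higher in DE D4 than in mESCs (1.74 ± 0.13), MES D4 (1.46 ± 0.13) and DEP D4 (1.01 ± 0.13). Rxrg, another partner, was lower in DE D4 than in mESCs (-2.20 ± 0.12), MES D4 (-2.30 ± 0.12) and DEP D4 (-2.89 ± 0.12), and lower in MP D4 than in MP D2 (-1.44 ± 0.12). The group mean of Rxrg was 6.58 in DE D4 and 6.70 in DE D2, and 8.50 or above in the other groups. That of Rxra was 10.23 in DE D4 and 9.75 in DE D2, and 9.22 or below in the other groups.

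Among enzymes of the list, Dhrs7, a short-chain dehydrogenase, was lower in DE D4 than in mESCs (-2.02 ± 0.18), DEP D4 (-1.88 ± 0.18) and DE D2 (-1.09 ± 0.18). Adh5, an alcohol dehydrogenase best known for formaldehyde removal, was lower in DE D4 than in MES D4 (-1.12 ± 0.18). Of the other enzymes of the list, 5 that work beside Aldh1a2 and Cyp26a1 were picked after their values were seen. Aldh1a1, Aldh1a3, Rdh10, Cyp26b1 and Cyp26c1 met the call rule in limma in 0 of the 80 pairwise tests. By kind of comparison, 1.16% to 5.54% of all tests were called. Of the 80 tests 11 had an unadjusted p below 0.05, and the values lay between -0.78 and 0.73. The group mean of Rdh11 was 9.55 in mESCs and 10.44 or above in the sorted groups. That of Dhrs9 was 7.00 in mESCs and 5.90 or below in the sorted groups.

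Genes reported to respond to retinoic acid in embryos or embryonic cells, some of which fall, were counted from a list of 31, of which 26 were measured. Against mESCs they gave 20 calls higher (2.11% of all tests) and 4 lower (3.43%) in 182 tests. Fgf8, which retinoic acid represses in the trunk, is counted among the calls higher once for each sorted group. The count thus pools genes that respond in opposite directions, and its tests share the 2 mESC arrays. Between lineages there were 2 higher and 10 lower in 78, where 3.29% of all tests were called in either direction. Between CD24 gates there were 2 and 2 in 78 (2.90%), and between days 4 and 1 in 78 (1.16%). The 10 calls lower in endoderm gates fell on Hox and Meis genes, which set position along the body axis, and on Ccnd1, a cyclin of the G1 phase. Meis2 was lower in DE D4 than in MES D4 (-4.08 ± 0.37, adjusted p = 7.90e-06), lower in DEP D4 than in MP D4 (-2.94 ± 0.37) and lower in DEP D2 than in MP D2 (-3.52 ± 0.37). Hoxb1, the gene that marks a hindbrain segment and has its own response elements, was lower in DE D4 than in MES D4 (-2.41 ± 0.11). So were Hoxb2 (-2.41 ± 0.14) and Ccnd1 (-3.33 ± 0.15). Between days, Hoxb2 (1.73 ± 0.14) and Hoxd4 (1.78 ± 0.15) were higher in MP D4 than in MP D2, the same contrast in which Crabp1 and Crabp2 were called higher.

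Rarres1, named for its induction by retinoids in skin, was higher in DE D4 than in mESCs (2.33 ± 0.24), DEP D4 (2.21 ± 0.24) and DE D2 (2.27 ± 0.24). Rarb was called higher in these comparisons too, and also in DE D2 over DEP D2, where Rarres1 differed by -0.09 ± 0.24 and was not called. Ccnd1 was lower in DE D4 than in mESCs (-3.44 ± 0.15), DEP D4 (-2.89 ± 0.15) and DE D2 (-2.46 ± 0.15). Fgf8, a growth factor of the primitive streak that retinoic acid represses in the trunk, was higher than in mESCs in 7 of 7 sorted groups, up to 3.40 ± 0.13 in DE D2 (adjusted p = 1.71e-08). Zfp703, a zinc finger repressor, was higher in DE D2 than in DEP D2 (1.83 ± 0.13).

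**Figure D5:**
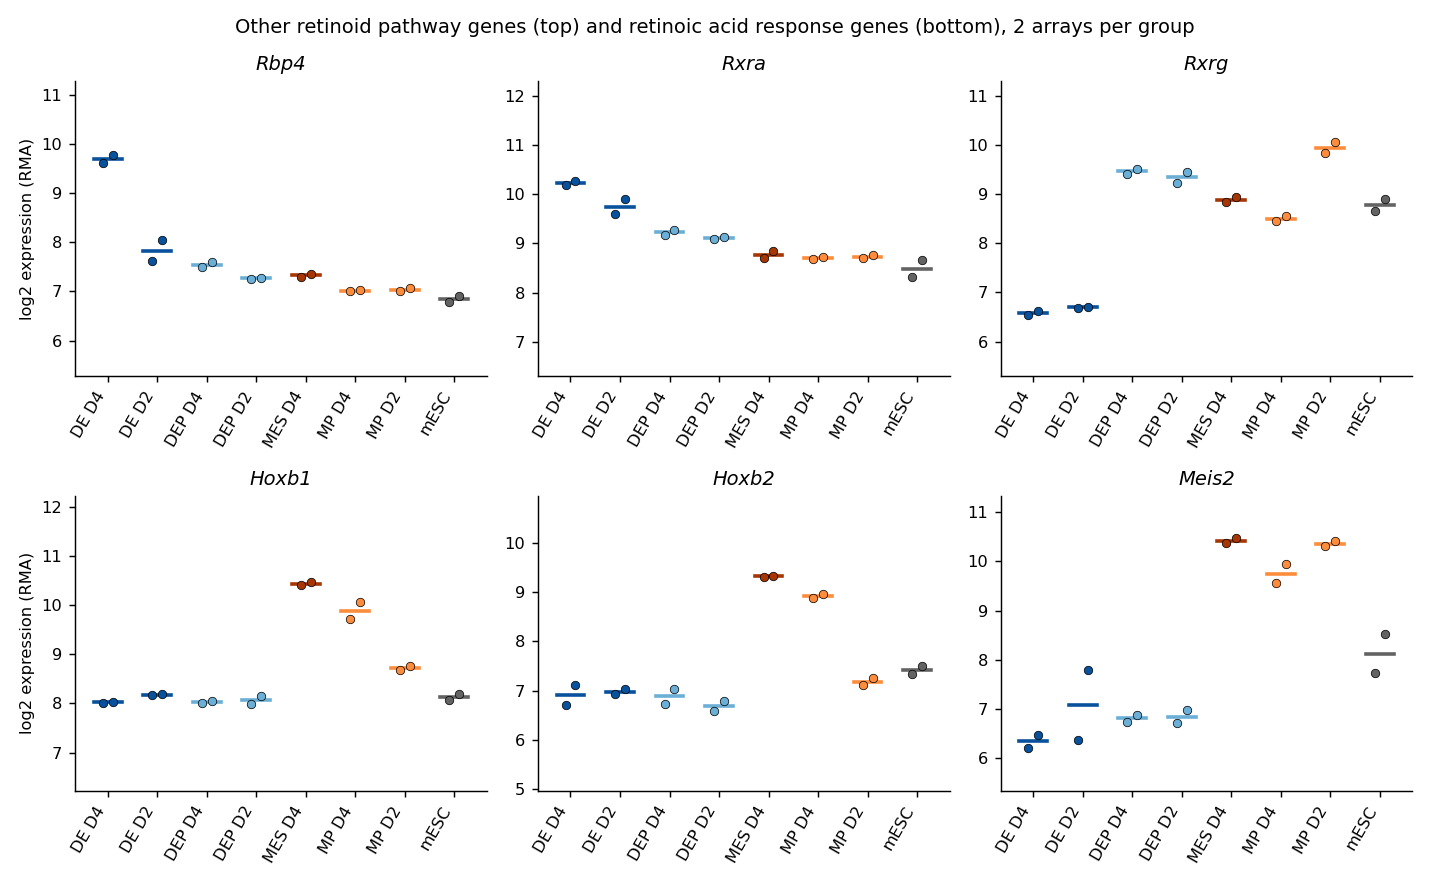
Log2 intensity (RMA, y axis) of 3 other retinoid pathway genes (top) and 3 response genes (bottom) on each array, by group (x axis), with points for the 2 arrays of a group and a line for their mean. Rbp4 and Rxra are highest in DE D4 and Rxrg is lowest in DE D4 and DE D2. Hoxb1 and Meis2 are highest in the mesoderm groups and Hoxb2 in MES D4 and MP D4.

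The genes most like each member over the 16 arrays were named for the 6 members whose group means spanned 2 or more on the log2 scale, from 3777 genes that spanned 1 or more. For Cyp26a1 they were Greb1 (Pearson r = 0.97), Gata4 (0.96) and Podxl (0.96), and for Rarb Kcnj5, Ryr2 and Pth1r (0.97 each). For Rarg they were Dnmt3a (0.98), Smarca1 (0.97) and Wasf3 (0.97), and for Crabp1 Eng (0.98), Rbms3 (0.97) and S1pr3 (0.96). For Crabp2 they were Nrk (0.97), Nrp2 (0.95) and Oasl2 (0.94), and for Dhrs3 Nrcam (0.90), Dok2 (0.89) and Vsig10 (0.88). These are the highest of many correlations over 8 groups of replicates and carry no test.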

How the data were processed

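Affymetrix Mouse Gene ST 1.0 arrays measured RNA of mESCs and of cells sorted on GFP, tagRFP and CD24. The authors ran RMA (background correction, quantile normalization and summary of probes) on all 16 arrays with oligo 1.48.0, per the submitters' processing notes and the methods. The log2 values they deposited are used here as they stand. RMA values compress differences at low intensity and cannot show a change of total RNA per cell.

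From the deposited log2 values, the 32000 of 35556 probe sets with the highest mean entered limma 3.58.1 (R 4.3.3). The model held 8 group means, and eBayes was run without trend. The filter and the thresholds (log2 fold change above 1 in size, Benjamini-Hochberg adjusted p below 0.05) follow the study's methods, which do not state the model formula. Contrasts were fitted on all 32000 probe sets, and the fit was tested on simulated data. Of the probe sets kept, 20427 carry 1 symbol in the platform annotation, 1400 carry several and 10173 carry none. A gene was read from its single-symbol probe set of highest mean, and of 21789 such probe sets 21698 matched RefSeq by Entrez number, with 0 changed symbols. Levels of different genes are not compared, since probe sets differ in brightness.

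The 9 genes, the lists and the tests were chosen with earlier results of these data known. All 9 are named. From the 2 lists, up to 4 called genes per kind of comparison were named, those of largest fold change with groups that do not overlap. Other values of these genes, and Aldh1a1, Aldh1a3, Rdh10, Rdh11, Dhrs9, Cyp26b1 and Cyp26c1, were added after their values were seen. Some genes of the 2 lists are not reported here. Promoter windows are from RefSeq (GRCm38.p6). Other settings were the 16000 brightest or all probe sets, trend and robust estimation, a fit of only the groups compared, subtracted array medians, adjusted p alone, treat, each array left out, the mean of a gene's probe sets, the replicate number as a block and, added after the data were seen, a fit without the mESC arrays. Whether same-numbered replicates deviate together was checked over 28 pairs of groups.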

Additional observations from a re-analysis of the deposited data

Results flagged for a closer look

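Crabp1 differed in its lineage difference between the days. DEP D4 minus MP D4 was -2.44 and DEP D2 minus MP D2 was -0.30, and the change of -2.14 was tested as an interaction term in limma (adjusted p = 9.92e-04). It was called in all leave-one-out fits and all other settings other than treat. Adjusted p alone and the mean of a gene's probe sets could not have lost this call.

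Rarb differed in its CD24 gate difference between the days. DE D4 minus DEP D4 was 2.58 and DE D2 minus DEP D2 was 1.17, and the change of 1.41 was tested in the same way (adjusted p = 0.0132). This call was lost in a fit of those groups alone (adjusted p = 0.0977), under treat and without any 1 of 4 arrays (adjusted p = 0.0532 to 0.0704). Both arrays of each group lay on the same side in either difference. With 2 arrays per group, single arrays could not be tested as outliers.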

How the results depend on the processing

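Of the 47 calls, 24 were kept in every setting and 36 with each array left out in turn. Adjusted p alone only relaxes the rule, and each of the 9 genes has 1 probe set. Those 2 settings, adjusted p alone and the mean of a gene's probe sets, could therefore lose none of the 47. In the main fit, the calls of the 9 genes numbered 25 against mESCs, 9 between lineages and 8 between CD24 gates. There were 3 between days and 2 for the interactions. The main fit gave 41 calls for the pathway list and 45 for the response list. Adjusted p alone gave 44 against mESCs, 15 between lineages, 6 between days, 143 for the pathway list and 99 for the response list. The treat test gave 15, 5, 4, 1 and 0 for the 5 kinds of comparison and 13 for the pathway list. With the 16000 brightest probe sets, which leave out Aldh1a2 and Rarb, 1 interaction was called. Without replicate 2 of DE D2, Crabp2 turned to -0.19 (from 0.38) in DE D2 minus DEP D2 and to 0.11 (from -0.46) in DE D4 minus DE D2, and without replicate 1 of DE D2 they were 0.96 and -1.03, none of them called. The Spearman correlations were lower for Crabp1 with Rbms3 (0.862) and S1pr3 (0.729), Rarb with Pth1r (0.85) and Rarg with Dnmt3a (0.709) and Wasf3 (0.762). The cause of these shifts was not tested. All probe sets, trend and robust estimation, subtracted medians and the fit without mESC arrays kept each call they could give.

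The main fit did not pair the samples by replicate number. Deviations of same-numbered replicates correlated at -0.20 to 0.25 over 28 pairs of groups, with a median of 0.04 and 8 of them above 0.1. These values describe the arrays and do not settle whether same-numbered replicates belong together. With the replicate number as a block, 25, 9, 8, 2 and 2 calls were made, and 41 and 45 in the lists, and 1 call was lost, Crabp2 in MP D4 minus MP D2 (adjusted p = 0.0528).

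Precision is limited by the 2 arrays per group. Aldh1a2 and the low groups of Rarb lie where RMA compresses differences.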
